A study of Homo sapiens with 9 samples.

Results

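SW480-B cells, which express BASP1 from an introduced construct, were compared with the parental SW480 cells over all genes. The comparison takes every SW480-B sample (genotype ectopic BASP1, n = 3) and every SW480 sample (genotype WT, n = 3), which are 6 of the 9 samples of the series. The other 3 are SW480-gRNA-B-all cells, in which the native BASP1 promoter was targeted with a CRISPR-based activator, and they enter only where SW480-B is set directly against them. SW480 is an established line from a human colon adenocarcinoma. SW480-B is 1 of several clones, each grown from a single cell after nucleofection of a pcDNA3 plasmid with the BASP1 coding region and selection with geneticin, and BASP1 is driven there by the plasmid's viral CMV promoter. The SW480 cells compared were not transfected or selected, and the line made with the empty plasmid was not analysed here. Effects of BASP1, of transfection and selection, and of the cloning of a single cell therefore cannot be told apart. The treatment label names BASP1 activation for all 9 samples, WT included, all 9 carry the same batch date, and the groups were taken from the genotype. RNA was sequenced from stranded poly(A) libraries, and counts on genes were 29355669, 28871024 and 29130517 in SW480 and 25238831, 29266705 and 28923139 in SW480-B. The sources used here do not say whether replicates came from separate cultures, so p-values measure only the spread between these samples.

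BASP1 encodes a myristoylated protein attached to the inner face of the plasma membrane, and much of what is known about it comes from growing neurons. The protein can also help to repress genes from within the nucleus, and many tumours silence BASP1. SW480 cells carry a truncated APC protein, which leaves β-catenin free to activate TCF target genes, among them MYC.

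BASP1 itself (ENSG00000176788, chromosome 5 of GRCh37, 17065707 to 17276952, plus strand) separated the lines completely. It was measured at 11.5, 7.84 and 0.671 CPM (counts scaled to library size with edgeR's TMM factors over the 6 samples) in SW480 replicates 1, 2 and 3, and at 268, 262 and 253 CPM in SW480-B. The 3 SW480-B samples lay close together, while in SW480 the lowest sample stood far under the other 2. On the log2 scale BASP1 rose by 5.29, with a standard error of 0.85 (adjusted p = 0.029, edgeR), without a block and 5.76 (standard error 0.79, adjusted p = 0.022) with the replicate numbers blocked. Counts per gene do not separate transcripts of the plasmid from those of the native gene. Without SW480 replicate 3, the change of BASP1 was 4.76 (adjusted p = 0.00021), and 2 of the 6 fits with a sample left out kept its call. BASP1-AS1, a non-coding RNA gene on the opposite strand within the BASP1 locus, had 0 counts in SW480-B and in 2 SW480 samples.

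The cells carried the marker profile of a colon epithelial line. Of 11 colon epithelium markers, 8 or 9 reached 1 CPM in each SW480 sample and 7 in each SW480-B sample, and the keratin KRT8 was the most abundant in all 6, at 4616, 4612 and 5131 CPM in SW480 and 3879, 6059 and 4545 CPM in SW480-B. The 11 markers summed to between 7001 and 11080 CPM in each sample. The leukocyte markers PTPRC, CD3E, CD14 and CD68 each stayed at or under 1.48 CPM in every sample, the highest being CD14 in SW480 replicate 3, and 7 fibroblast and endothelial markers summed to between 2.93 and 10.3 CPM, with COL1A1 or LUM on top. CDX2, a homeobox factor of intestinal identity, stood at 29.4, 30.0 and 40.6 CPM in SW480 and 58.7, 65.7 and 59.0 CPM in SW480-B. CDX2 was not called with all samples (adjusted p = 0.12, edgeR) and was called higher without SW480 replicate 3 (log2 1.04, adjusted p = 0.044). CDX1, its relative, was under 1 CPM in SW480 and had 0 counts in SW480-B, and CDH17 and VIL1, described with the genes that fell, had lower levels in SW480-B. In bulk RNA, fewer cells of a type and less RNA per cell cannot be told apart.

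The SW480 samples differed among themselves. Over the 16106 genes tested, SW480 replicates 1 and 2 differed by more than 2-fold in 14.4% of genes, replicates 1 and 3 in 24.2% and replicates 2 and 3 in 9.05%, so that both larger distances involved replicate 1. SW480 replicate 3 differed from SW480-B replicate 3 in 4.40% of genes, fewer than from either sample of its own line. The other 8 pairs of samples from different lines differed in 13.6% to 30.9% of genes. Among the 695 genes called lower without SW480 replicate 3, its level lay between those of the remaining SW480 samples and the SW480-B samples for 559 genes (80.4%), and for 150 of 226 genes called higher (66.4%). BASP1 did not share this position, since its level in SW480 replicate 3 was the lowest of the 6 samples. Mitochondrial transcripts took 1.71%, 2.74% and 2.41% of counts in SW480 and 4.17%, 2.94% and 2.63% in SW480-B, and intronic bases were 5.57%, 4.598% and 3.61% against 7.27%, 3.94% and 3.50% of aligned bases. The part of these differences in the results was not tested, and counts of calls are given with and without SW480 replicate 3.

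Across all genes the changes that passed the test with all 6 samples were mostly losses. A gene is called here where the Benjamini-Hochberg adjusted p of edgeR's quasi-likelihood test is under 0.05 and the change is above 2-fold. Of 16106 genes tested, 201 (1.25%) fell in SW480-B and 15 (0.0931%) rose. Blocking on the replicate number gave 263 genes that fell (1.63%) and 56 that rose (0.348%). The block kept 188 of the 201 genes called lower (93.5%), which are 71.5% of its own, and 14 of the 15 called higher (93.3%), and 319 genes were called with it in all. The median standard error over all genes was 0.36 without and 0.28 with the block. The scaling centres the fold changes, whose median was -0.0039, and where size alone counted, past 2-fold, 1256 genes lay above and 1168 below.

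The number of calls changed with most of the samples left out. Without SW480 replicate 3, 226 of 16868 genes were called higher (1.34%) and 695 lower (4.12%), among them 215 of the 216 called with all samples. Without SW480 replicate 1 the counts were 14 higher and 199 lower, with 181 of the 216 among them. When SW480 replicate 2 was left out, 55 genes were called lower and 1 higher, and when SW480-B replicate 3 was, 14 lower and 2 higher. Without SW480-B replicate 1 or without SW480-B replicate 2, edgeR called 0 genes, although 1951 and 1676 genes had an unadjusted p under 0.05. DESeq2, run on all 6 samples, called 362 genes higher (2.25%) and 591 lower (3.67%). Every call made without the block and named below was therefore lost in those fits, and counts of list members without SW480 replicate 3 are given beside those with it.

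**Figure D1:**
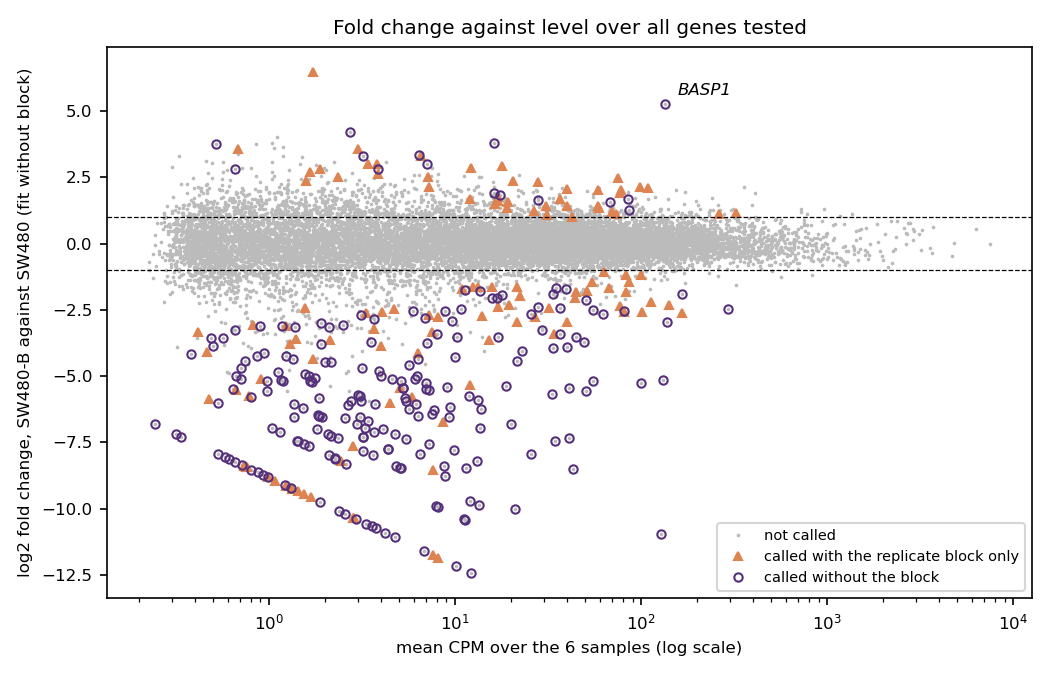
Log2 fold change of SW480-B against SW480 (vertical axis, fit without block) against the mean CPM over the 6 samples (horizontal axis, log scale) for 16106 genes. Open circles mark the 216 genes called without the block, triangles those called with the block only, and dashed lines a 2-fold change. Points on the lowest diagonal are genes with 0 counts in SW480-B, whose fitted fold change is no estimate of size.

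The 201 genes called lower had a moderate median level in SW480, and most of them were nearly silent in SW480-B. Their median level was 8.16 CPM in SW480 and 0.0867 CPM in SW480-B. Of the 201, 161 averaged under 1 CPM in SW480-B, as did 2330 of all 16106 genes tested. No read at all was counted in the 3 SW480-B samples for 26 of the 201 (12.9%), against 0.248% of all genes tested. By type, 178 were protein-coding genes and 20 long non-coding RNA genes. In 189 of the 201 (94.0%) SW480 replicate 3 had the lowest level among the SW480 samples, against 37.8% of all genes tested. Their median level in the SW480 replicates 1, 2 and 3 was 12.3, 8.85 and 2.29 CPM. The 15 genes called higher had their lowest SW480-B level in replicate 3 in 14 cases (93.3%, against 34.7% of all genes tested), with medians of 27.7, 28.9 and 14.0 CPM in the 3 SW480-B replicates.

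**Figure D2:**
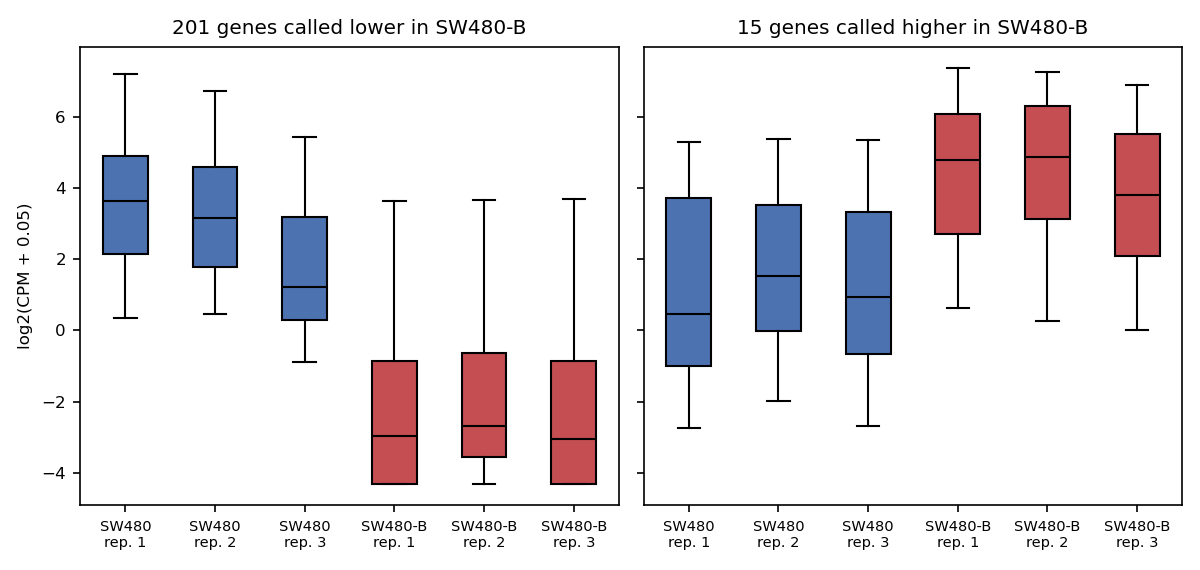
Levels in each sample, as log2(CPM + 0.05), of the 201 genes called lower (left) and the 15 called higher (right). Boxes span the quartiles with the median as a line, and whiskers reach the 5th and 95th percentiles over genes. In the left panel SW480 replicate 3 has a median of 2.29 CPM against 12.3 and 8.85 CPM in the other SW480 samples.

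The 15 genes called higher in SW480-B included a receptor, a vesicle factor and a ubiquitin ligase. PTGER2, a receptor for prostaglandin E2 that signals through cAMP, was measured at 0.1001, 0.404 and 0.318 CPM in SW480 and 5.77, 7.82 and 1.90 CPM in SW480-B. PTGER2 thus rose by log2 4.22, with a standard error of 0.73 (adjusted p = 0.037, edgeR), and no SW480-B sample came near the SW480 range. SYTL2, a synaptotagmin-like protein that tethers secretory vesicles to the membrane, had 0.700, 2.86 and 3.00 CPM in SW480 and 27.7, 43.1 and 19.6 CPM in SW480-B, a log2 change of 3.78 (standard error 0.58, adjusted p = 0.026). PDZRN3, an E3 ubiquitin ligase with PDZ domains, was higher by log2 3.01, standard error 0.50 (adjusted p = 0.033, edgeR).

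Genes for a pair of subunits of the same enzyme were among these 15. Serine palmitoyltransferase makes the first committed step of sphingolipid synthesis, SPTLC3 is one of its large subunits, and SPTSSB is a small subunit that shapes its choice of substrate. SPTLC3 was at 0.834, 1.24 and 0.777 CPM in SW480 and 6.27, 9.77 and 4.19 CPM in SW480-B. SPTSSB was at 0.5003, 1.04 and 1.87 CPM in SW480 and 12.8, 16.1 and 6.26 CPM in SW480-B. The lines did not overlap for either gene, and both were lowest in replicate 3 of SW480-B. Their log2 changes were 2.82 (standard error 0.47, adjusted p = 0.033, edgeR) and 3.36 (standard error 0.59, adjusted p = 0.038), and with the block SPTSSB was not called (adjusted p = 0.054).

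The other genes called higher had varied functions and levels. NUCB2, a calcium-binding protein and the precursor of nesfatin, had 55.6, 54.0 and 42.4 CPM in SW480 and 118, 128 and 118 CPM in SW480-B, and had the smallest standard error of the 15 (0.20). CALCOCO1, an autophagy receptor, had 38.8, 41.1 and 41.0 CPM in SW480 and 166, 153 and 71.99 CPM in SW480-B. FAM107B, ATOSB, CACNA2D4 (an auxiliary subunit of voltage-gated calcium channels) and HAGLR (a non-coding RNA gene at the HOXD cluster) rose by log2 1.57, 1.92, 1.66 and 1.84. DDO, which oxidises D-aspartate, and the non-coding RNA genes LINC02577 and LINC02525 completed the 15, all under 1 CPM on average in SW480. The adjusted p of ATOSB, CALCOCO1 and DDO was 0.049 for each, at the edge of the threshold. Without SW480 replicate 3, DDO was no longer called (adjusted p = 0.058).

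The block brought in 42 further genes called higher. NLRP1, the sensor of an inflammasome, was at 0.567, 0.606 and 0.212 CPM in SW480 and 10.5, 4.83 and 1.36 CPM in SW480-B, so that every SW480-B sample exceeded its SW480 partner and replicate 3 was the lowest in both lines. Its adjusted p was 0.084 without the block, 0.025 with it and 0.066 without SW480 replicate 3. PTPRZ1 and PTPN7, which remove phosphate from tyrosine, were called with the block at log2 2.15 and 2.75, and without SW480 replicate 3 (adjusted p = 0.048 and 0.035). PTPRD, also among the 29 tyrosine phosphatases tested, had 0 counts in SW480-B. It was called lower without and with the block (adjusted p = 0.025 and 0.017, edgeR). Without SW480 replicate 3, 2 of 30 tyrosine phosphatases were called higher and 3 lower, and DESeq2 called 2 higher and 1 lower. MAP1B, which stabilises microtubules, ERN1, the endoplasmic reticulum stress sensor IRE1, AKAP12, a scaffold for protein kinase A, KLF4, a zinc finger factor of epithelial differentiation, and SLC16A6, a monocarboxylate transporter family member, had block changes of log2 1.13, 1.15, 1.18, 1.28 and 1.58. None of these 5 was called by edgeR without the block (adjusted p = 0.22, 0.24, 0.28, 0.24 and 0.071) or without SW480 replicate 3 (adjusted p = 0.21, 0.25, 0.098, 0.22 and 0.061). In 11 of the 56 genes called higher with the block the levels of the lines overlapped. The lines did not overlap in 80.4% of these 56 genes, against 22.9% of all genes tested. Calls rest on the same levels, so this share describes the calls only.

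Among 60 gene lists, 27 held at least 1 member called lower without the block and 34 with it, while 3 and 9 lists held a member called higher. Of the 201 genes called lower, 69 belonged to at least 1 list, and of the 16106 tested 2541 did. Lists share genes, and a gene that was off in SW480-B entered the tests only through its level in SW480, so counts of members describe the calls and no more. The share of all tested genes called lower was 1.25% without the block, 1.63% with it, 4.12% without SW480 replicate 3 and 3.67% by DESeq2. The shares called higher were 0.0931%, 0.348%, 1.34% and 2.25%, and each count of members belongs beside the share from the same fit. Counts are from edgeR where no tool is named.

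Genes that guide axons had several members called lower. These secreted semaphorins, Robo receptors and related molecules steer growing nerve processes and also act in epithelia and vessels. Of 52 listed, 42 were tested and 7 (16.7%) were called lower, with the same number under the block and 9 without SW480 replicate 3. In these 3 fits edgeR called 0 higher, while 4 of the 17 members with an unadjusted p under 0.05 lay above 0 and DESeq2 called 2 higher and 9 lower. Among the 7 called without the block, SEMA3A, SEMA3C, SEMA3D and SEMA3E are neighbours from 80 to 90 Mb of chromosome 7, a window described below. SEMA3D was at 11.2, 37.01 and 12.3 CPM in SW480 and had no count in SW480-B, at least 557-fold lower against a floor of 3 counts over the SW480-B samples pooled. SEMA3C had 15.2, 17.5 and 6.21 CPM in SW480 and 0.0774, 0.0695 and 0 CPM in SW480-B. The receptor gene ROBO2 was at 68.0, 42.2 and 15.005 CPM in SW480 and had 3 counts in all SW480-B samples together, a ratio of 1162 with a 95% counting interval of 397 to 5638. SEMA3E, at under 1 CPM in SW480, had 0 counts in SW480-B, at least 17.5-fold lower, and was not called with the block (adjusted p = 0.066).

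Some cell adhesion molecules of the cadherin superfamily fell. Among classical and desmosomal cadherins 3 of 12 tested (29 listed) were called lower, and among protocadherins 3 of 15 tested (62 listed), with the same counts under the block, and 6 of 15 and 7 of 20 without SW480 replicate 3. PCDH19, a protocadherin of neural circuits, was the most abundant, at 449, 274 and 40.2 CPM in SW480 and 0.348, 0.0348 and 0 CPM in SW480-B. CDH17, the liver-intestine cadherin, had 17.7, 6.02 and 1.59 CPM in SW480 and none in SW480-B, at least 236-fold lower. CDH11, a mesenchymal cadherin, had 12.3, 44.2 and 13.7 CPM against 0.464, 0.695 and 0.143 CPM. CDH12 was carried by SW480 replicate 1, with 55.2, 8.71 and 2.75 CPM, and had 1 count in SW480-B. PCDH15 and PCDH9 had 2 and 3 counts in SW480-B and means of 9.63 and 8.71 CPM in SW480. E-cadherin (CDH1), in contrast, ranged from 20.7 to 70.8 CPM in SW480 and from 43.5 to 49.2 CPM in SW480-B.

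Neuronal and synaptic genes had 3 of 39 tested members (56 listed) called lower without the block, 6 with it and 13 of 41 without SW480 replicate 3, and DESeq2 called 2 higher and 10 lower. CNTN1, a membrane-anchored adhesion molecule of axons, was at 148, 122.97 and 26.4 CPM in SW480 and 1.70, 2.85 and 1.79 CPM in SW480-B, a log2 change of -5.55 (standard error 0.67, adjusted p = 0.012, edgeR). CHL1 and MAP2 were called with the block (adjusted p = 0.038 and 0.028) and without SW480 replicate 3 (0.0058 and 0.012), while with all samples and no block their adjusted p was 0.052 and 0.070. The microtubule gene MAP1B went the other way, from 210.1, 185 and 98.2 CPM to 477, 399 and 210.1 CPM, and was called with the block. The levels of MAP1B in the lines met at 210.1 CPM.

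Ion channel genes numbered 9 called lower and 1 higher among 129 tested (248 listed), 11 and 1 with the block, and 19 and 7 of 142 without SW480 replicate 3. DESeq2 called 17 ion channel genes lower and 10 higher, and the list's median was 0.32, with 77 members above 0. The voltage-gated sodium channel gene SCN3A was at 34.6, 8.21 and 4.38 CPM in SW480, with 1 count in SW480-B. CACNA2D1, an auxiliary calcium channel subunit, had 19.9, 18.9 and 4.48 CPM against 0.0387, 0.139 and 0.0358 CPM, while its relative CACNA2D4 rose from 14.7, 14.1 and 11.7 CPM to 44.9, 54.1 and 28.9 CPM. GABRB2 and GABRG1, subunits of GABA receptors, had 1 and 0 counts in SW480-B. GABRG1, at 40.0, 4.71 and 0.847 CPM in SW480, was called with the block (adjusted p = 0.011, against 0.098 without it) and without SW480 replicate 3 (adjusted p = 0.0076). Of 87 G protein-coupled receptor genes tested (253 listed), 4 were called lower and PTGER2 higher, and 13 lower and 2 higher of 98 without SW480 replicate 3, while DESeq2 called 12 lower and 7 higher. SSTR1, a somatostatin receptor, fell from 35.3, 25.7 and 6.71 CPM to 1 count, and ADGRL2, an adhesion receptor of the latrophilin family, from 40.1, 29.03 and 9.04 CPM to 0.0387, 0.0695 and 0.143 CPM. With the block CHRM3, a muscarinic receptor with 0 counts in SW480-B, was also called (adjusted p = 0.0088), as it was without SW480 replicate 3 (adjusted p = 0.0031).

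Genes of intestinal differentiation lay on both sides of 0. Of 30 enterocyte genes 6 passed the filter on low counts, and 2 were called lower without and 3 with the block. VIL1, the actin-bundling villin of the brush border, was at 333, 301 and 95.9 CPM in SW480 and 29.7, 35.0 and 30.6 CPM in SW480-B, a log2 change of -2.94 (standard error 0.44, adjusted p = 0.025, edgeR). CDHR2, which links neighbouring microvilli, had 18.5, 9.66 and 1.62 CPM against 0.387, 0.313 and 0.107 CPM. ESPN, an actin bundler of microvilli, was called with the block at log2 -1.69 (adjusted p = 0.020). Among 27 secretory lineage genes, 8 were tested and 2 called lower, DEFA5 and NEUROD1. Of these 8, 4 lay above 0, 3 of them past 2-fold, 3 of the 6 with an unadjusted p under 0.05 lay above 0, and DESeq2 called 1 higher and 3 lower. DEFA5, an antimicrobial defensin of Paneth cells, had 9.11, 13.1 and 6.43 CPM in SW480 and none in SW480-B, at least 264-fold lower. TFF3, a goblet cell peptide, had 12.7, 4.00 and 0.530 CPM against 0 counts and was called with the block (adjusted p = 0.019) and without SW480 replicate 3 (adjusted p = 0.0040). Of 17 keratin genes tested, KRT17 was called lower without and KRT17 and KRT6A with the block, and DESeq2 called 1 higher and 3 lower. Without SW480 replicate 3, 5 of 9 enterocyte, 3 of 9 secretory and 3 of 17 keratin genes tested were called lower, against 4.12% of all genes.

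Transcription factors of development had members called lower in several families. Homeobox genes outside the HOX clusters had 5 members called lower of 67 tested (110 listed), with and without the block. Without SW480 replicate 3 there were 9 called lower and 1 higher of 70, and DESeq2 called 10 lower and 2 higher. NKX2-5, a cardiac homeobox factor, had 10.7, 8.85 and 3.00 CPM in SW480 and none in SW480-B, at least 209-fold lower. POU3F2, a neural POU factor, had 56.7, 39.3 and 14.0 CPM against 1.12, 0.730 and 0.823 CPM. EMX2 had 1 count in SW480-B. Of 65 SOX, FOX, GATA and KLF genes tested, SOX6, SOX5 and FOXP2 were called lower with and without the block, and KLF4 higher with it. SOX6 stood at 21.5, 10.5 and 3.60 CPM against 0.310, 0.556 and 0.143 CPM. The orphan nuclear receptor ESRRG went from 34.3, 29.6 and 9.29 CPM to no count, at least 678-fold lower, and its relative ESRRB fell by 3.14 on the log2 scale (adjusted p = 0.034, edgeR). These were the 2 called of 30 nuclear receptors tested, with and without the block, while the list's median was 0.38, with 20 above 0. Of its 10 members with an unadjusted p under 0.05, 6 lay above 0, and DESeq2 called 1 higher and 2 lower. Without SW480 replicate 3, 3 nuclear receptors were called lower and 1 higher of 32. In the SOX, FOX, GATA and KLF list 8 were called lower and 1 higher of 69 without SW480 replicate 3, and 9 lower and 1 higher by DESeq2. edgeR called 0 of 31 HOX cluster genes and 0 of 416 numbered zinc finger genes with all samples, and 1 HOX gene higher and 5 zinc finger genes lower without SW480 replicate 3. With all samples, unadjusted p-values under 0.05 numbered 2 and 27, and DESeq2 called 0 of the HOX genes and 7 of the zinc finger genes, 3 higher and 4 lower.

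WNT feedback genes and TCF targets had 3 of 27 tested members (32 listed) called lower without the block, 5 with it and 7 without SW480 replicate 3. DKK4, a secreted WNT antagonist induced by the pathway, had 6.47, 9.25 and 10.9 CPM in SW480 and 0.271, 0.139 and 0.358 CPM in SW480-B. For this gene SW480 replicate 3 had the highest level, and the log2 change was -5.10 (standard error 0.51, adjusted p = 0.0094, edgeR). LGR5, the R-spondin receptor that marks intestinal stem cells, fell from 14.4, 9.35 and 2.22 CPM to 3 counts, a ratio of 242 with a counting interval of 82.5 to 1176. The list's median was 0.01, and between -0.11 and 0.01 with a sample left out, with 14 members above 0 and 13 below. Unadjusted p-values under 0.05 numbered 10, all below 0, and DESeq2 called 8 lower. CCND2, a D-type cyclin, was called with the block, at 276, 194 and 48.1 CPM against 52.0, 26.2 and 9.80 CPM, with overlap between the lines (adjusted p = 0.0054, 0.16 without it and 0.021 without SW480 replicate 3). No WNT ligand or receptor of 28 tested and no transducer of 31 tested was called by edgeR with or without the block or without SW480 replicate 3, while 5 and 7 had an unadjusted p under 0.05 and DESeq2 called 1 and 2, all higher.

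In the Notch pathway, which passes signals between neighbouring cells, 3 of 26 tested genes were called lower, 4 with the block and 7 of 27 without SW480 replicate 3, and DESeq2 called 6 lower and 1 higher. LFNG, a glycosyltransferase that tunes Notch receptors, was at 83.5, 75.5 and 41.5 CPM in SW480 and 4.68, 5.98 and 8.12 CPM in SW480-B. Its log2 change of -3.41 (standard error 0.36, adjusted p = 0.0094, edgeR) was called in 4 of the 6 fits that leave out a sample. HES6 fell from 63.2, 36.8 and 32.5 CPM to 6.15, 4.31 and 10.8 CPM, HES5, a Notch target, had 0 counts in SW480-B, and the ligand gene JAG2 was called with the block (log2 -1.74, adjusted p = 0.016). In the TGF-β and BMP list 2 of 37 were called lower, both BMP ligands. BMP5 had 23.4, 15.8 and 5.402 CPM against 0.232, 0.104 and 0.179 CPM, and BMP2 had 9.24, 17.3 and 4.41 CPM against 0.426, 0.139 and 0.143 CPM. INHBB, which encodes an activin subunit, was added by the block (adjusted p = 0.049, and 0.052 without it), and 8 of the list were called lower and 1 higher of 39 without SW480 replicate 3.

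Among 49 cell cycle genes tested, 1 was called lower without the block and 2 with it. The list's median was -0.25, with 36 members below 0, and it ranged from -0.60 to 0.10 with a sample left out. CDK6, the kinase that drives entry into S phase with D-type cyclins, was at 721, 582 and 184 CPM in SW480 and 95.7, 97.1 and 74.4 CPM in SW480-B. Its log2 change was -2.48 (standard error 0.47) with an adjusted p of 0.0499 from edgeR, just inside the threshold, and -2.28 with the block (adjusted p = 0.028). CDK6 and, with the block, CCND2 were these called members, and without SW480 replicate 3 there were 3, all lower. Of 13 MYC network genes 1 was called with the block, and 2 without SW480 replicate 3, all lower. MYCN, called in both, was at 16.8, 15.4 and 2.40 CPM against 0.116, 0.487 and 0 CPM (adjusted p = 0.011 with the block, 0.054 without it and 0.0056 without SW480 replicate 3). In ribosome biogenesis edgeR called 0 of 39 genes with or without the block, and DESeq2 called 0. Unadjusted p-values under 0.05 numbered 0 without the block and 5 with it.

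Some genes of the matrix, of proteolysis and of transport were called. COL4A1, the basement membrane collagen, was at 96.1, 39.1 and 17.2 CPM in SW480 and 0.116, 0.313 and 0.179 CPM in SW480-B. It was the 1 call among 39 collagen, laminin and basement membrane genes tested (2.56%, against 1.25% of all genes). Without SW480 replicate 3 there were 5 called lower of 41 (against 4.12% of all genes), while DESeq2 called 1 higher and 2 lower. Of 77 protease and inhibitor genes 2 were called lower (2.60%), and 5 with the block (6.49%, against 1.63% of all genes). Without SW480 replicate 3, 10 of 80 were called lower and 2 higher, against 4.12% and 1.34% of all genes. The median of this list was 0.40, with 51 of 77 above 0, 19 past 2-fold above and 11 past 2-fold below, and DESeq2 called 10 lower and 1 higher. TMPRSS15, the enteropeptidase, had 58.2, 12.8 and 1.31 CPM against 2 counts, and TMPRSS2 was called with the block at log2 -2.60 (adjusted p = 0.022). Of 239 solute carrier genes 5 (2.09%) were called lower, 4 lower (1.67%, against 1.63% of all genes) and 1 higher with the block, and 11 lower and 4 higher of 244 without SW480 replicate 3. Their median was 0.18, with 149 above 0, and DESeq2 called 10 lower and 8 higher. ABCA3, a lipid transporter, fell from 72.5, 68.4 and 17.9 CPM to 6.97, 5.22 and 4.40 CPM. Cancer-testis antigens were mostly silent in both lines, with 83 of 110 listed at 0 counts in all 6 samples and 5 tested. SPANXD, SPANXC, MAGEC3 and MAGEC2, which lie together on the X chromosome in families with very similar copies, so that their counts are uncertain, were called lower, also 4 without SW480 replicate 3 with 1 other higher, and SPANXD went from 12.8, 5.45 and 1.66 CPM to no count.

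Some lists with no call in the fit without the block had medians away from 0. Interferon-stimulated genes had a median log2 change of 0.69, with 30 of 36 tested above 0, and this median stayed between 0.61 and 0.75 over the 6 fits that leave out a sample. TNF and TNF receptor genes had a median of 0.71 (24 of 28 above 0), which ranged from 0.40 to 0.76 with a sample left out, and integrin subunits 0.61 (14 of 18 above 0), with a range of 0.32 to 0.72. Cytosolic ribosomal proteins had a median of -0.48, with 73 of 83 below 0, and respiratory chain subunits -0.37, with 71 of 81 below 0 and a range of -0.62 to -0.19 with a sample left out. The ribosomal median varied by a standard deviation of 0.52 between samples of a line and ranged from -0.68 to -0.06 with a sample left out. For the interferon, TNF, integrin and respiratory lists this standard deviation was 0.21, 0.19, 0.24 and 0.33. edgeR called 0 genes of the interferon, TNF, integrin, ribosomal and respiratory lists without the block. Unadjusted p-values under 0.05 numbered 13, 9, 5, 3 and 6, of which 11, 8, 5, 0 and 0 lay above 0. DESeq2 called 3, 2, 2, 1 and 1, of which 2, 1, 2, 0 and 0 were higher. Without SW480 replicate 3 edgeR called 3, 2, 1, 0 and 1, of which 1, 0, 1, 0 and 0 were higher and the rest lower. FGF ligands and receptors (16 tested), MHC class I genes (18), the focal adhesion core (29) and cholesterol and fatty acid synthesis (31) had medians of -0.89, 0.40, 0.38 and 0.36. With a sample left out these 4 medians ranged from -1.06 to -0.40, 0.21 to 0.68, 0.20 to 0.58 and 0.05 to 0.69. Their standard deviations between samples of a line were 0.27, 0.32, 0.31 and 0.49. Here edgeR also called 0 without the block, unadjusted p-values under 0.05 numbered 6, 2, 5 and 5, DESeq2 called 3, 0, 0 and 0, and edgeR without SW480 replicate 3 called 2, 0, 0 and 0. With the block HERC5 and TNFRSF25 were called lower, from the interferon and TNF lists, each against the sign of its list's median. Over all genes tested the median was -0.0039, and none of these medians was compared by a test.

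Other genes that the study names, from RNA or from protein data, were mostly not called in SW480-B. The study's RNA plot with KISS1, PROX1, RUNX2, MYC and TNIK sets SW480-gRNA-B-all against SW480. Its protein data of SW480-B were compared with the line made with the empty plasmid. These are other comparisons than the one made here. The study's Northern analysis of MYC and MAX included SW480-B, and the paper reports lower mRNA of both genes alongside BASP1 activation. PROX1, a homeobox factor and WNT target, was at 368, 256 and 77.6 CPM in SW480 and 75.2, 39.3 and 27.7 CPM in SW480-B. Its lowest SW480 value and its highest SW480-B value nearly met, and its log2 change of -2.30 (standard error 0.58) missed the threshold (adjusted p = 0.12, edgeR), while the block gave -2.16 (standard error 0.27, adjusted p = 0.017) and the fit without SW480 replicate 3 gave -2.71 (adjusted p = 0.0084). MYC was at 775, 427 and 222 CPM in SW480 and 401, 410.4 and 313 CPM in SW480-B, and the lines overlapped. MYC had a log2 change of -0.34 (standard error 0.42, adjusted p = 0.73, edgeR), and -0.17 with the block (adjusted p = 0.76). Without SW480 replicate 1, the highest of the 6, MYC was at 0.21 (adjusted p = 0.87).

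KISS1, a metastasis suppressor gene, stayed near 1 CPM in both lines, with 0.267, 0.639 and 1.24 CPM in SW480 and 0.774, 0.800 and 1.29 CPM in SW480-B. RUNX2, a factor of bone development, had 23.8, 69.1 and 74.1 CPM in SW480 and 200.2, 145 and 96.0 CPM in SW480-B, a log2 change of 1.40 (standard error 0.45, adjusted p = 0.19, edgeR). The lines did not overlap for RUNX2, yet the spread within each was wide. CTNNB1, which encodes β-catenin, had 1404, 1722 and 1549 CPM against 680.1, 913 and 1199 CPM (log2 -0.74, adjusted p = 0.28). TNIK, MAX, JUND, MTA1, TRIM28, TCF7L2, STK4 and FOS had adjusted p-values between 0.30 and 0.87 without the block and between 0.18 and 0.76 with it. FOS passed the threshold without SW480 replicate 3 (log2 1.45, adjusted p = 0.045). MARCKSL1, a relative of BASP1 at the membrane, was called lower with the block, at 84.7, 166 and 126 CPM against 36.2, 46.0 and 57.0 CPM (adjusted p = 0.026, and 0.068 without it).

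SW480-B was also set directly against SW480-gRNA-B-all, the line with an activated native promoter, to see where the named genes differed. CPM here are scaled over all 9 samples, and this comparison shares the SW480-B samples with the one above. Calls numbered 693 above 0 (4.37% of 15846 tested) and 366 below (2.31%). BASP1 had 268, 269 and 250.5 CPM in SW480-B and 167, 304 and 300.3 CPM in SW480-gRNA-B-all, a log2 difference of 0.03 (standard error 0.24, adjusted p = 0.95, edgeR). CPM are not scaled to transcript length, and the paper reports a shorter BASP1 transcript from the plasmid than from the native gene. Similar CPM of BASP1 therefore do not show similar numbers of its transcripts. BASP1-AS1 had 0 counts in SW480-B and 3.08, 6.85 and 7.65 CPM in SW480-gRNA-B-all. The strand setting of the counting is not given in the sources used here, although at least 99.1% of stranded reads lay on the expected strand in each sample.

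Several genes the study names separated the BASP1 lines. KISS1 was at 0.774, 0.820 and 1.27 CPM in SW480-B and at 103, 61.8 and 58.9 CPM in SW480-gRNA-B-all (log2 -6.27, standard error 0.34, adjusted p = 2.0e-04, edgeR). PROX1 was higher in SW480-B, at 75.2, 40.3 and 27.3 CPM against 6.44, 3.87 and 3.74 CPM (log2 3.35, adjusted p = 0.0037), and so were RUNX2 (log2 2.90, adjusted p = 0.0014), TNIK (log2 1.38, adjusted p = 0.0039) and FOS (log2 1.68, adjusted p = 0.0028). MYC, at 401, 421 and 309 CPM in SW480-B and 289, 125 and 125 CPM in SW480-gRNA-B-all, was not called without the block (log2 1.07, adjusted p = 0.092) and was called higher in SW480-B with it (log2 1.18, adjusted p = 0.016). MAX, MTA1, TRIM28, CTNNB1, TCF7L2, STK4 and JUND were called in neither fit, with adjusted p-values between 0.24 and 0.97 without the block and between 0.23 and 0.90 with it. Genes called higher against SW480 are given side by side. PTGER2, SYTL2, SPTLC3, SPTSSB, PDZRN3 and NUCB2 were called higher in SW480-B here too, at log2 4.201, 2.65, 3.29, 5.03, 2.60 and 1.55. CALCOCO1, HAGLR, DDO and LINC02525 had log2 differences of 0.09, -0.08, 0.26 and 0.22, with adjusted p-values between 0.71 and 0.91. FAM107B, CACNA2D4 and ATOSB were not called either (log2 0.52, 0.48 and 0.37), and LINC02577, at log2 2.47, had an adjusted p of 0.066 without and 0.011 with the block. Without the block PTPRZ1 differed most of the named genes above 0, at 56.3, 65.9 and 18.1 CPM against 0.847, 0.434 and 0.334 CPM (log2 6.43, adjusted p = 0.0014). With the block ADAMTS19, from the protease list, lay above it, at log2 6.53 against 6.37.

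Several named genes lost from SW480-B had little or no signal in SW480-gRNA-B-all. SEMA3D, CDH17 and GJA1, a gap junction gene at least 197-fold lower in SW480-B than in SW480, had 0 counts in all 6 samples of both lines, and ESRRG had counts in 1 SW480-gRNA-B-all sample alone, at 0.0334 CPM. The Notch genes LFNG and HES6 had log2 differences of -0.15 and -0.03 between the lines (adjusted p = 0.77 and 0.97). CNTN1 was higher in SW480-B (log2 2.91, adjusted p = 0.015), and ABCA3 lower (log2 -1.29, adjusted p = 0.048). Both lines are measured against the same SW480 samples where their losses are counted, so these values are given side by side and no overlap is drawn from them.

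Genes called lower lay on every autosome and the X chromosome, with 3 on chromosome 22 and 16 on each of chromosomes 2 and 7, and the shares ran from 0.364% of 1098 genes tested on chromosome 19 to 2.52% of 278 on chromosome 13. Of 308 windows of 10 Mb, 140 held at least 1 gene called without the block, and 179 at least 1 called with or without it. Without the block the window from 80 to 90 Mb of chromosome 7 (GRCh37) held the most, with 6 of 24 genes tested called lower and a median log2 change of -0.71. They are SEMA3A, SEMA3C, SEMA3D, SEMA3E, CACNA2D1 and CD36, of which SEMA3A and CD36 were chosen for mention after their values were seen. The window from 110 to 120 Mb of chromosome 11 followed, with 5 of 81 called lower, COLCA1, POU2AF1, POU2AF2, POU2AF3 and TAGLN, also chosen after their values were seen. In 4 windows there were 4 genes called lower, on chromosomes 2, 9 and 17 and, with the cancer-testis genes, from 140 to 150 Mb of the X chromosome. With the block these windows of chromosomes 7 and 11 and that from 0 to 10 Mb of chromosome 1 each held 5 genes called lower. Window medians over at least 20 genes lay between log2 -0.94 and 0.51, and chromosome medians between -0.33 (chromosome 18) and 0.26 (chromosomes 13 and 17). Whether copy number differs between the lines was not tested.

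Promoters of the called genes were compared by a short motif. The 6 bases CTTTGA or CTTTGT, the core to which TCF factors bind, were searched on both strands from 250 bases before to 50 after the start of each gene (RefSeq, GRCh38.p14). They were present in 43 of 140 genes called lower that had a promoter (30.7%, 95% exact binomial interval 23.2% to 39.1%), in 1 of 9 called higher and in 2092 of all 11414 (18.3%). With the block the shares were 30.7% of 179 called lower and 10.8% of 37 called higher. Base composition moved with this: CG dinucleotides filled a median of 4.68% of positions in the genes called lower and 8.70% in all genes, and GC content was 58.0% against 65.3%. The motif is poor in G and C, and its share at equal base composition was not tested. A match shows these letters and no binding.

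The promoters below belong to named genes called lower that hold the most matches, ADGRL2 and SLC16A7 (a monocarboxylate transporter, 10.9, 6.12 and 1.41 CPM in SW480 against 0.0774, 0.209 and 0 CPM), with 3 matches each in capitals, and to BASP1, whose native promoter has none and is not part of the plasmid. The SLC16A7 stretch holds 38.0% G and C, and that of BASP1 66.7%.
ADGRL2 (chr1:81800126-81800425, strand +): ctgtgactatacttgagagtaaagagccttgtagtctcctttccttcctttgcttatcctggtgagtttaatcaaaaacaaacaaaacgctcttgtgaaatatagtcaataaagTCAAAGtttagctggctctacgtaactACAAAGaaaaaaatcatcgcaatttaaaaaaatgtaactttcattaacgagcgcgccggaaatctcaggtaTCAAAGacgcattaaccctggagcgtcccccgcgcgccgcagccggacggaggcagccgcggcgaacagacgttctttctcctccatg
SLC16A7 (chr12:59689120-59689419, strand +): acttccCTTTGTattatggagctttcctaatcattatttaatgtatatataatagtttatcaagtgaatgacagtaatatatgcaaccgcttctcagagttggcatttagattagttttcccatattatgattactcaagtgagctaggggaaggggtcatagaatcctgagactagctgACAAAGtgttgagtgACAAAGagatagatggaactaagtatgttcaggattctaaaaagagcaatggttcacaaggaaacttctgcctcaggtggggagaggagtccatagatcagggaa
BASP1 (chr5:17216573-17216872, strand +): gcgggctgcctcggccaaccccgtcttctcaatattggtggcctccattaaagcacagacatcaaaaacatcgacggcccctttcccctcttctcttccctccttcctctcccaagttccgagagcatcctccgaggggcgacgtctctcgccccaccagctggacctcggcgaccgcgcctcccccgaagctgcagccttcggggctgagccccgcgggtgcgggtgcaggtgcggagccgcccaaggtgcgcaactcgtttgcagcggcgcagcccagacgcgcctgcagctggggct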

How the data were processed

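RNA of 9 samples was sequenced, and 6 of them enter the comparison. Whole-number counts per Ensembl gene, made on GRCh37 and not normalized, are what the authors deposited for each sample, and they were tested unchanged. The deposited metrics files also hold normalized coverage along transcripts as a signal, of which nothing was tested, and shares of aligned bases. The counting program and its version are not given in the sources used here. Lines that name no gene were left out of library sizes and tests, and held 5.23% to 9.93% (no gene) and 3.09% to 3.44% (more than 1 gene) of the counts in these samples. Symbols and positions on GRCh37 were matched for 55665 of 63677 identifiers (99.4% of counts), and 10 symbols in the lists were not matched.

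In edgeR 4.0.16 (R 4.3.3) low genes were removed by filterByExpr at a least count of 10 and a total of 15, TMM factors were used, and the quasi-likelihood test followed a robust glmQLFit, with Benjamini-Hochberg adjustment over all genes tested. To get standard errors, each log2 change was divided by the root of its F. CPM use TMM factors. For genes at 0 counts in a line a lower bound of the fold is given, against 3 counts over the pooled samples of the line (0.0363 CPM in SW480-B), and those at 1 to 3 counts as ratios with exact binomial 95% intervals. Floors and intervals cover counting error only. Other tools were DESeq2 1.42.0, limma 3.58.1 (as part of edgeR) and Python 3.11.15 with scipy 1.17.1.

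Replicates are numbered in the titles. Deviations of same-numbered samples from the mean log2(CPM + 0.5) of their line correlated at 0.308, 0.414 and 0.404 over 16106 genes. All were above the limit of 0.1 for pairing, so the block is given beside results it changes. Deviations of differently numbered samples correlated at -0.309 to -0.0504. Within a line the deviations of a gene cancel out, so these negative values follow in part from the positive ones.

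Named are BASP1 and BASP1-AS1, genes the study names, every gene called higher, the 12 largest fitted falls, the 12 largest rises and falls with the block at 1 CPM or more, and, from each list, at most 4 called members a direction. Members and the 60 lists were chosen with earlier results of these data known. Alternatives were RLE factors, other filters, all 9 samples in 1 fit, the block, each sample left out, DESeq2 and other thresholds. Leaving out each same-numbered pair under the block was chosen after seeing the data. Some results are not reported here.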

Additional observations from a re-analysis of the deposited data

How the results depend on the processing

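No named gene that was called without the block turned direction under the 12 alternatives run on single genes, which do not include leaving out a same-numbered pair. Of 72 such genes RLE factors and DESeq2 each kept 72, fitting all 9 samples together 71, blocking 70, no filter 68 and the filter at 1 CPM 53 of the 60 it tested. Counts of calls moved more. With no filter on low counts 198 genes were called higher and 537 lower, with all 9 samples in 1 fit 92 and 360, by DESeq2 362 and 591, and by a 2-fold change alone 1256 and 1168. A filter at 1 CPM in 3 samples left 132 called lower. The replicate block gave 56 called higher, and leaving out a same-numbered pair under the block, chosen after seeing the data, gave 221 and 423 without pair 1, 6 and 152 without pair 2, and 994 and 997 without pair 3. Leaving out 1 sample gave 0 to 226 genes called higher and 0 to 695 called lower by edgeR, the 0 counts without SW480-B replicate 1 or 2, with 1951 and 1676 unadjusted p-values under 0.05. Of the 72 named genes 62 were still called without SW480 replicate 1, 24 without SW480 replicate 2, 71 without SW480 replicate 3, 7 without SW480-B replicate 3 and 0 without SW480-B replicate 1 or 2.

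Genes not called changed sign in places, and the cause was not tested. With 1 sample left out MYC ranged from -0.68 to 0.21, MAX from -0.30 to 0.036, TNIK from -0.035 to 0.19 and JUND from -0.58 to 0.021 on the log2 scale. CCND2 between SW480-B and SW480-gRNA-B-all was at -0.22 with the replicate block, against 0.01 without it. The median of the cell cycle list went from -0.25 to 0.10 without SW480 replicate 3. Depth limits genes at 0 counts to bounds, and 3 samples a line limit every test.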
